A study of Mus musculus with 12 samples.

Results

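Ribosomal protein genes encode the proteins that, together with the ribosomal RNAs, build the cytosolic ribosome. Their transcripts were followed here in inguinal white adipose tissue (iWAT). The members were every gene of the count table named Rpl or Rps with a number and at most the suffix a, l, x or l1, plus Rplp0, Rplp1, Rplp2 and Rpsa, with pseudogenes named -ps left out. The rule gave 86 of 54134 genes. Of these, 43 encode large (60S) subunit proteins, 30 small (40S) subunit proteins, 3 proteins of the ribosomal stalk and 6 paralogs of such proteins, and 4 carry a pseudogene biotype (Rpl32l, Rpl6l, Rps12l1 and Rps4l). The name rule leaves out a few ribosomal protein genes of other names, such as Rps3a1, Rpl36al, Rps27rt and Fau, which are counted as a list of their own below.

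The samples were iWAT RNA of 12 male C57BL/6J mice, 6 AAV-GFP and 6 AAV-Notum, with 1 library per mouse. Each mouse received, at 8 weeks of age, a tail vein injection of 1e12 genome copies of an AAV8 vector in which the liver-specific TBG promoter drives GFP or mouse Notum. All mice ate chow, and tissue was taken 4 weeks later after a 4 h fast. NOTUM is a secreted enzyme that inactivates Wnt proteins, so the comparison asks how fat differs when the liver overexpresses it. Total counts ran from 14711113 to 21618860 a mouse. The RNA of AAV-GFP mouse S_2012 was isolated on a later date than that of the other 11. Notum itself had at most 17 reads in any AAV-GFP iWAT library. It had 560 and 433 reads in AAV-Notum mice S_2032 and S_2041 and at most 16 in the other AAV-Notum mice, and as the transgene is driven in liver this does not check the labels.

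Each ribosome holds its proteins in nearly equal amounts, and cells regulate these genes as a group. Growth signals act on them through mTORC1, which promotes translation of mRNAs that begin with a run of pyrimidines, the 5′ terminal oligopyrimidine tract. Cells that prepare to divide, activated lymphocytes among them, build more ribosomes. Mammalian genomes also hold many processed pseudogenes of these genes, whose sequence can match that of the mRNA base for base.

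The longest pyrimidine run near the gene start is shown, since this family is known for a run at the mRNA start. Promoter windows in RefSeq (GRCm38.p6) were matched for 63 of the 86 members by symbol. Each line gives 30 bases around the annotated start, 15 on each side, 5′ to 3′ on the gene's strand, with the longest run of C and T in capitals. The run in capitals need not begin at the start. It ends before the start in Rps27l, Rpl39l and Rps19, and begins 6 bases after it in Rpl39. The first 4 are canonical members and the others are a parent with its paralog, or a paralog. Long runs are more common in these lines than among all matched members. Rpl22, the parent of Rpl22l1, is not shown and had a longest run of 4.
Rps6 (chr4:86857353-86857382, minus strand): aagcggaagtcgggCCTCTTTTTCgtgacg
Rplp2 (chr7:141447636-141447665, plus strand): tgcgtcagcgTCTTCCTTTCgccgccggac
Rps26 (chr10:128626492-128626521, minus strand): gtcgggcaagccgccggaTCCTCTTTCgag
Rps19 (chr7:24884577-24884606, plus strand): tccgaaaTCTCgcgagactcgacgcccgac
Rps27 (chr3:90213634-90213663, minus strand): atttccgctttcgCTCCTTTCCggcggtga
Rps27l (chr9:66946071-66946100, plus strand): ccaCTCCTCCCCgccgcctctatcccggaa
Rpl39 (chrX:37085208-37085237, minus strand): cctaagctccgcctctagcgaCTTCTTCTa
Rpl39l (chr16:10170213-10170242, plus strand): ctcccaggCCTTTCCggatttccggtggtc
Rpl22l1 (chr3:28805493-28805522, plus strand): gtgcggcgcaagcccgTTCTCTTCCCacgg

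A run of at least 8 pyrimidines lay in this window in 26 of 63 members (41.3%), against 11.9% of 27025 promoters, 1 for each gene symbol. It was present in 23 of 56 canonical members and in 3 of 7 paralogs or pseudogene-biotype members. Rps19 had a longest run of 4 and Rplp2 one of 10. Motifs were searched on both strands of the 300 bases from 250 before to 50 after the start. The letters CTTTCC, which can overlap the pyrimidine run, occurred in 47.6% of members and 26.3% of all promoters. CCGGAAG, a core bound by ETS factors, occurred in 38.1% of members and 9.12% of all promoters. TATAAA, a core promoter element, occurred in 11.1% and 14.2%. Among tested canonical members with a window, the run was present in 8 of 22 that were higher in AAV-Notum mice at an unadjusted p under 0.05 and in 15 of 33 that were not, by the test described further on. These matches describe the annotated windows only.

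Levels differed widely between members. Counts per 1000000 reads (CPM) were divided by the length of the principal GENCODE transcript, since levels of different genes compare only per length. Rpl8, a protein near the peptidyl transferase centre, was at 663 ± 150.0 CPM per kilobase (mean ± SD, n = 12), and Rplp1, an acidic stalk protein, at 608 ± 140.2. These lay within each other's spread. At the other end, Rps6, the substrate of S6 kinase, was at 1.61 ± 0.624, Rps23 of the decoding centre at 1.49 ± 0.476, Rps16 at 1.14 ± 0.415 and Rpl24 at 0.776 ± 0.331 CPM per kilobase. With the union of all exons as the length, the highest were Rplp1 (608 ± 140.2), Rps15 (427 ± 90.3) and Rpl4 (421 ± 101), and Rps6 (0.890 ± 0.345) was the lowest of those tested. The 76 canonical members spanned an 854-fold range, and the top 10 members held 56.1% of all member reads.

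Most members share sequence with other genes over the length of a read. Reads were 50 bases long, and a 50-base window of a member's principal transcript that also occurs in another annotated gene cannot place a read. The median share of windows found in no other gene was 43.5% over the 86 members, and 53 members were under 50%. Shared coding windows of Rpl7a and Rpl23a are shown because many other genes hold them. Rpl7a (chromosome 2) shares its coding bases 429 to 478 with 45 other genes, and Rpl23a (chromosome 11) its coding bases 250 to 299 with 18. Every base is shared, so no letter is in capitals.
Rpl7a: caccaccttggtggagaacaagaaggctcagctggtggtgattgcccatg
Rpl23a: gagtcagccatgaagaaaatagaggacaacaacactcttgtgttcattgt

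Levels per length moved with this share. In the 27 canonical members with under 25% of windows of their own, the median was 15 CPM per kilobase. It was 36.2 in the 23 members with 25 to under 50%, 128 in the 18 with 50 to under 75%, and 416 in the 8 with 75% or more. Spearman's rho over the 76 canonical members, which share libraries and are not independent, was 0.515. Exceptions ran both ways. Rps10 had 7.57% of windows of its own and 118 CPM per kilobase, while Rps16 had 58.4% and 1.14. How reads that match several genes were counted is not given in the sources used here, and its part in these levels was not tested. Genes named as -ps pseudogenes of Rps6 held 25.7% of the summed reads of Rps6 and these genes, with 26.9% for Rpl23a and 0.0279% for Rplp0. The totals of 10 tested members differed by over 10% between the deposited count table and the reads recovered from the normalized table, from a ratio of 0.341 for Rpl23a to 1.57 for Rpl38. The level of a member with few windows of its own is uncertain, and the comparisons that follow are within a gene across mice.

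**Figure D1:**
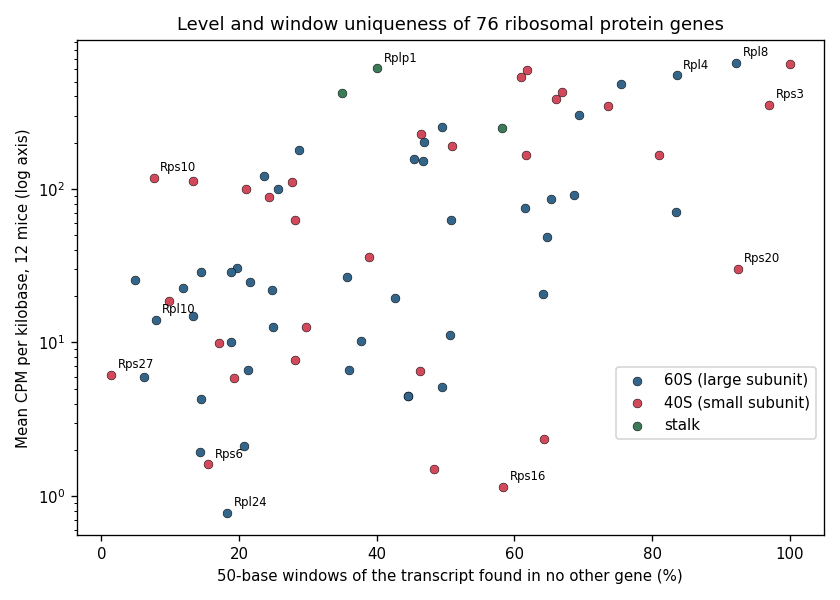
Mean CPM per kilobase over 12 mice (log axis) against the percentage of 50-base windows of the principal transcript found in no other gene, with 1 point for each of 76 canonical members, coloured by group. Members with 75% or more lie between 30.3 and 663, and those with under 25% between 0.776 and 121.

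Most estimates for ribosomal protein transcripts were above 0 in AAV-Notum compared to AAV-GFP mice, but no single member passed the adjusted test. Of the 86 members, 80 passed the filter on low counts. In edgeR's quasi-likelihood test over 15585 genes, 32 of the 80 were higher in AAV-Notum mice at an unadjusted p under 0.05, against 4.64% of all genes tested, and 0 were lower, against 9.54%. No member passed an adjusted p of 0.05 by edgeR, DESeq2 or limma-voom (0.0513% of all genes did by edgeR, 2.85% by DESeq2 and 0.0385% by limma-voom), and the lowest was 0.194 by edgeR. At an unadjusted p under 0.05, DESeq2 gave 38 members higher, against 3.34% of its genes, and limma-voom 38, against 9.38%. The estimate was above 0 for 75 of the 80 members, with a median log2 fold change of 0.35, against 0.01 over all genes. By role, 16 of 42 60S members, 15 of 30 40S members, 0 of 3 stalk members and 1 of 4 paralogs were higher at that level, with medians of 0.33, 0.36, 0.34 and 0.09. With total counts in place of TMM the edgeR count of 32 was 19, against 3.98% of all genes. It was 20 without AAV-GFP S_2011, 20 without S_2012, 21 without S_2014 and 18 without AAV-Notum S_2034, against 2.88%, 2.99%, 3.03% and 3.15% of all genes. It was 43 without AAV-GFP S_2013 and 45 without AAV-GFP S_2022, against 6.15% and 10.3%.

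Averaged over the 80 members, log2 CPM was 4.72 ± 0.31 in AAV-GFP and 5.04 ± 0.17 in AAV-Notum mice (mean ± SD, n = 6 each), a difference of 0.32. AAV-GFP mice S_2014, S_2011 and S_2012 were lowest at 4.36, 4.44 and 4.52. The other AAV-GFP mice stood between 4.94 and 5.03, inside the AAV-Notum range of 4.83 to 5.23, so 3 AAV-GFP mice lay below every AAV-Notum mouse and 3 did not. As a share of all counts, members held 0.686 ± 0.196% in AAV-GFP and 0.919 ± 0.199% in AAV-Notum mice. The mean of 60S minus that of 40S members was -0.46 ± 0.06 in AAV-GFP and -0.51 ± 0.05 in AAV-Notum mice, a gap that moved by less than its spread between mice. For 0 of 80 members did every AAV-Notum mouse lie above every AAV-GFP mouse, against 0.398% of all genes tested. In 44 members all 6 AAV-Notum mice lay above the AAV-GFP mean, against 13.7% of all genes tested.

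Among the members of smallest p were Rps19, Rpl23, Rps26 and Rpl17, all higher at the unadjusted level. Values are given as the lowest, median and highest mouse of a group. Rps19 (chr7:24884371-24889806, mm10), a gene mutated in Diamond-Blackfan anaemia, had 112, 128 and 148 CPM in AAV-GFP mice and 144, 161 and 191 CPM in AAV-Notum mice. The groups overlapped only from 144 to 148 CPM, with a log2 fold change of 0.33 ± 0.10 (SE, edgeR adjusted p = 0.194). Rpl23 (chr11:97777527-97782437), a large subunit protein that also binds Mdm2, had 49.0, 75.4 and 97.2 CPM against 92.9, 110.0 and 119.8 CPM, a log2 fold change of 0.55 ± 0.17 (edgeR adjusted p = 0.201). Its 3 lowest values were those of AAV-GFP mice S_2014, S_2011 and S_2012, at 49.0, 54.9 and 61.4 CPM. Rps26, at the mRNA exit channel, had 68.5, 96.2 and 116 CPM against 107, 132 and 165 CPM (0.47 ± 0.15 on the log2 scale, edgeR adjusted p = 0.214). Rpl17 was the least abundant of these, with 2.21, 3.82 and 5.54 CPM against 5.24, 6.20 and 7.30 CPM (0.65 ± 0.21, edgeR adjusted p = 0.216). In each of these genes the lowest AAV-Notum mouse lay below the highest AAV-GFP mouse.

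Among the most abundant members, Rpl4, which lines the exit tunnel, had 513, 725 and 932 CPM in AAV-GFP and 798, 979 and 1107 CPM in AAV-Notum mice, a log2 fold change of 0.43 ± 0.17 (edgeR adjusted p = 0.303). Rps15 had 179, 233 and 283 CPM against 260.4, 297 and 377 CPM (0.37 ± 0.14, edgeR adjusted p = 0.281). Both were higher at the unadjusted level. The stalk genes, whose products recruit elongation factors, did not pass it. Rplp0 had 227, 291 and 395 CPM against 283, 394 and 451 CPM (0.36 ± 0.17, edgeR adjusted p = 0.364). Rplp1 had 218, 265 and 329 CPM against 256, 337 and 443 CPM, and Rplp2 146, 168 and 181 CPM against 128, 195 and 228 CPM, where the lowest AAV-Notum mouse lay below every AAV-GFP mouse. Rpl41, the smallest ribosomal protein, Rplp2 and Rpl27a had the narrowest spread between AAV-GFP mice, with SDs of 0.09, 0.13 and 0.13 on the log2 scale. Rpl41 was higher at the unadjusted level, at 71.6, 78.6 and 85.5 CPM against 83.6, 90.3 and 132 CPM (edgeR adjusted p = 0.244), and Rpl27a was not (0.14 ± 0.08 on the log2 scale).

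Several members of known special roles or of few reads did not pass the unadjusted threshold. Rpsa, also known as a laminin receptor, had 6.19, 8.61 and 13.7 CPM in AAV-GFP and 6.63, 11.5 and 15.1 CPM in AAV-Notum mice (log2 fold change 0.35 ± 0.24). Rpl5 and Rpl11, which join the 5S ribosomal RNA and can bind Mdm2, had log2 fold changes of 0.17 ± 0.21 and 0.13 ± 0.18. With single mice left out these ran from 0.06 (without S_2014) to 0.29 (without S_2013) for Rpl5 and from 0.05 (without S_2012) to 0.24 (without S_2022) for Rpl11. Rps6 had 0.392, 1.39 and 2.65 CPM against 1.04, 1.27 and 1.88 CPM, on 7 to 43 reads, with a log2 fold change of -0.07 ± 0.34. Its AAV-GFP values enclosed those of AAV-Notum, and Rps29, Rps6 and Rpl39l had the widest spread of the tested members between AAV-GFP mice, with SDs of 0.94, 0.82 and 0.74 on the log2 scale. Rpl23a was at -0.01 ± 0.28 on 9 to 28 reads, Rps23 at 0.37 ± 0.29 (0.22 without S_2014) and Rps29 at 0.54 ± 0.41 (0.31 without S_2011). Rps16, with 9 to 39 reads, did pass at the unadjusted level and had the highest estimate of all members (0.74 ± 0.25, edgeR adjusted p = 0.231).

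**Figure D2:**
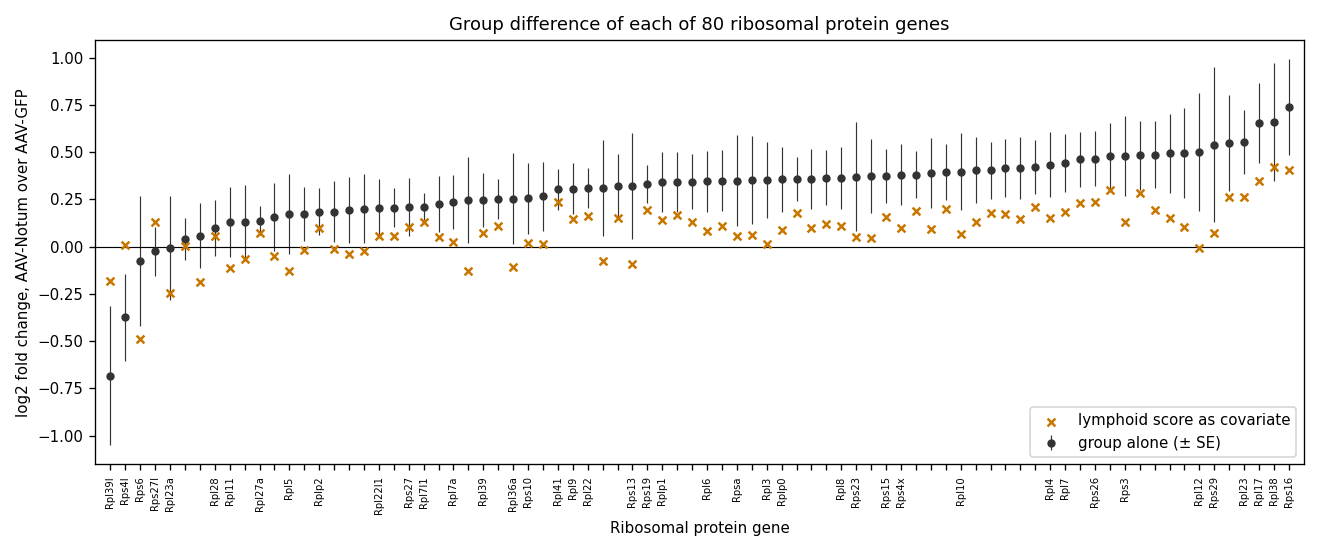
Log2 fold change of AAV-Notum over AAV-GFP for the 80 tested members, ordered by size with some names shown, as black points ± SE from edgeR with group alone, and as orange crosses with the lymphoid score as a covariate. Black points run from -0.68 (Rpl39l) to 0.74 (Rps16) with a median of 0.35, and the crosses have a median of 0.10.

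The 5 estimates below 0 were those of Rpl39l, Rps4l, Rps6, Rps27l and Rpl23a, none of which passed the unadjusted threshold. Rpl39l, a paralog of Rpl39 best known from testis, had 1.54, 3.68 and 7.29 CPM in AAV-GFP and 1.29, 2.67 and 3.56 CPM in AAV-Notum mice (-0.68 ± 0.37 on the log2 scale, edgeR adjusted p = 0.401), with AAV-GFP S_2011 the highest mouse. Without S_2011 its log2 fold change was -0.41. Its parent Rpl39 was at 0.25 ± 0.14. Rps4l, which carries a transcribed processed pseudogene biotype, had 13.7, 25.7 and 34.3 CPM against 14.3, 18.7 and 26.5 CPM (-0.37 ± 0.23), while its parent Rps4x was higher at the unadjusted level, with 65.1, 95.7 and 116 CPM against 94.8, 125 and 137 CPM (0.38 ± 0.16, edgeR adjusted p = 0.325). Rps27l, a p53 target, was at -0.03 ± 0.13 and Rps27 at 0.21 ± 0.15. Rpl22l1 was at 0.20 ± 0.15, beside 0.31 ± 0.10 for Rpl22, which passed at the unadjusted level. Rpl7l1, a paralog of Rpl7, had 48.0, 52.3 and 62.4 CPM against 58.8, 61.5 and 65.0 CPM, a small difference of 0.21 ± 0.07 (edgeR adjusted p = 0.237), and Rpl7 one of 0.44 ± 0.15 (edgeR adjusted p = 0.236), both higher at the unadjusted level. Rpl3 and Rpl10, the parents of untested paralogs, were at 0.35 ± 0.20 and 0.40 ± 0.20.

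The 6 members that did not pass the filter were Rpl10l, Rpl24, Rpl32l, Rpl3l, Rpl6l and Rps12l1. Rpl10l and Rps12l1 had 0 reads in every mouse, Rpl32l at most 1 and Rpl6l at most 3. Rpl24 had 2 to 17 reads. Rpl3l, a paralog of Rpl3 known from striated muscle, had 0 to 141 reads. It was highest in AAV-Notum S_2042 at 9.13 CPM, AAV-GFP S_2012 at 2.44 CPM and AAV-GFP S_2011 at 1.96 CPM. The summed CPM of 6 skeletal muscle markers was highest in S_2042 (3436) and S_2012 (735), followed by AAV-Notum S_2033 (508) and S_2011 (496). In S_2033 Rpl3l was at 1.52 CPM.

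Lymphoid transcripts varied far more between mice. A lymphoid score, the mean log2 CPM of 15 B and T cell genes such as Cd79a of the B cell receptor, was 0.10 and -0.63 in AAV-GFP mice S_2011 and S_2014, 3.56 in S_2012, and 4.97 to 7.05 in the other mice. Cd79a was at 0.280 and 0.179 CPM in S_2011 and S_2014 (5 and 3 reads), 36.3 in S_2012, and 40.1 to 178 CPM in the others. The inguinal fat pad encloses a lymph node. In bulk samples fewer cells of a type and less RNA per cell cannot be told apart. Of the 15 lymphoid genes, 0 were higher in AAV-Notum mice at an unadjusted p under 0.05 by edgeR, 0 by DESeq2 and 6 by limma-voom. The shares over all genes were 4.64%, 3.34% and 9.38%. The summed CPM of the 15 genes was 9.18 to 1799 among AAV-GFP and 566 to 2493 among AAV-Notum mice.

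The mean of the ribosomal protein genes followed this score. Since S_2011 and S_2014 stand apart, the relation is given within the other 10 mice, as a description. There Pearson's r was 0.881 and Spearman's rho 0.867, and without the 2 of these mice farthest from the median score r was 0.833. Without S_2012, whose RNA was isolated on another date, r was 0.678 over 9 mice. Within the 6 AAV-Notum mice r was 0.688. For the share of counts, which uses no TMM factor, r was 0.864 over the 10 mice. The TMM factor, which scales all genes of a mouse, moved with the mean too (r = 0.707 over the 10 mice), and its part was not tested. With Cd79a alone in place of the score, r was 0.754 over the 10 mice and 0.539 without the 2 farthest.

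**Figure D3:**
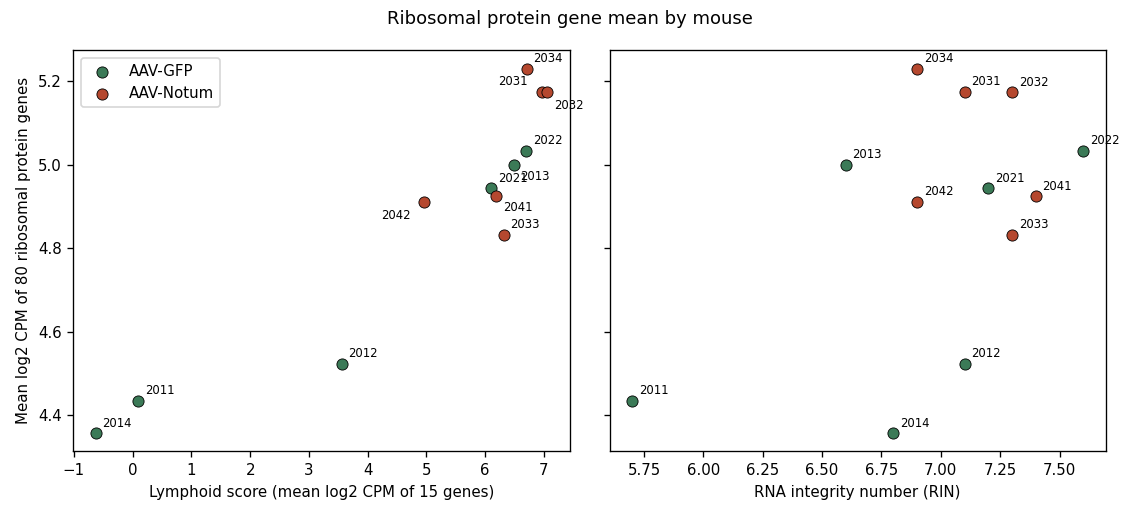
Mean log2 CPM of the 80 tested members for each of 12 mice against the lymphoid score (left, mean log2 CPM of 15 genes) and against RIN, the RNA integrity number (right), green for AAV-GFP and red for AAV-Notum. AAV-GFP mice S_2014, S_2011 and S_2012 have both the lowest member means (4.36 to 4.52) and the lowest lymphoid scores (-0.63 to 3.56), at a RIN of 6.8, 5.7 and 7.1.

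Gene by gene, the slope on the lymphoid score was fitted with the group as a second term, over all genes. At an adjusted p under 0.05 (edgeR), 58 of 80 members had a positive slope, against 25.6% of all genes tested, and 1, Rps4l, a negative slope, against 19.7%. The median slope was 0.10 log2 CPM per unit of the score in members and 0.00 over all genes. By role, 31 of 42 60S, 25 of 30 40S, 2 of 3 stalk and 0 of 4 paralog genes had a positive slope. For Cd79a in place of the score the count was 44, against 21.9% of all genes tested, and it was 21 without AAV-GFP S_2014 and 23 without AAV-GFP S_2022, against 14.5% and 15.4% of all genes. Without both S_2011 and S_2014, 46 members had an adjusted positive slope on the score, against 21.1% of all genes.

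The steepest positive slopes were those of Rpl12, Rps29 and Rps6. Rpl12, at the base of the stalk, had a slope of 0.23 ± 0.03 (SE, edgeR adjusted p = 8.29e-05). It was at 5.36 CPM in S_2014, 6.61 in S_2011 and 8.34 in S_2012, and at 9.84 to 22.3 CPM in the other mice, so these 3 AAV-GFP mice were the lowest. Rps29 had 0.23 ± 0.08 (edgeR adjusted p = 0.0263) on 2 to 32 reads and Rps6 0.19 ± 0.06 (edgeR adjusted p = 0.0194). Rpl3 (0.15 ± 0.02, edgeR adjusted p = 2.31e-05) and Rps3 (0.15 ± 0.02, edgeR adjusted p = 0.000245), with 97.0% of windows of its own, rose with the score. Rplp0 (0.11 ± 0.02), Rplp1 (0.08 ± 0.03), Rpsa (0.13 ± 0.04), Rpl5 (0.13 ± 0.03) and Rpl11 (0.11 ± 0.03) also passed the adjusted threshold. With single mice left out, the adjusted p of Rpl12, Rpl3, Rps3, Rplp0 and Rpl11 stayed under 0.05. That of Rps6 was 0.0903 without S_2011 and 0.0864 without S_2022, that of Rps29 0.111 without S_2011 and 0.0660 without S_2013, and that of Rpsa 0.0614 without S_2011 and 0.0970 without S_2022 (edgeR). The slope itself ran from 0.13 (without S_2011) to 0.32 (without S_2014) for Rps6 and from 0.15 to 0.41 without the same mice for Rps29. By adjusted p, Rpl5 had 0.0506 without S_2014, and Rplp1 missed the threshold in 10 of 12 such fits, with at most 0.108 (edgeR adjusted p). Rplp2 (0.03 ± 0.03), Rpl41 (0.03 ± 0.02) and Rpl27a (0.02 ± 0.02) did not pass the adjusted threshold with all mice. The lowest slopes were those of Rpl39l (-0.17 ± 0.06, edgeR adjusted p = 0.0533), Rps4l (-0.13 ± 0.04, edgeR adjusted p = 0.0118) and Rps27l (-0.06 ± 0.02, edgeR adjusted p = 0.0580). Rps4l was at 34.3 and 31.6 CPM in S_2011 and S_2014 and at 13.7 to 27.2 CPM in the others. Its parent Rps4x was at 72.7 and 65.1 CPM there and at 80.6 to 137 CPM in the others, the opposite order. Over the tested canonical members, rho between the slope and the share of windows of a member's own was -0.0988.

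**Figure D4:**
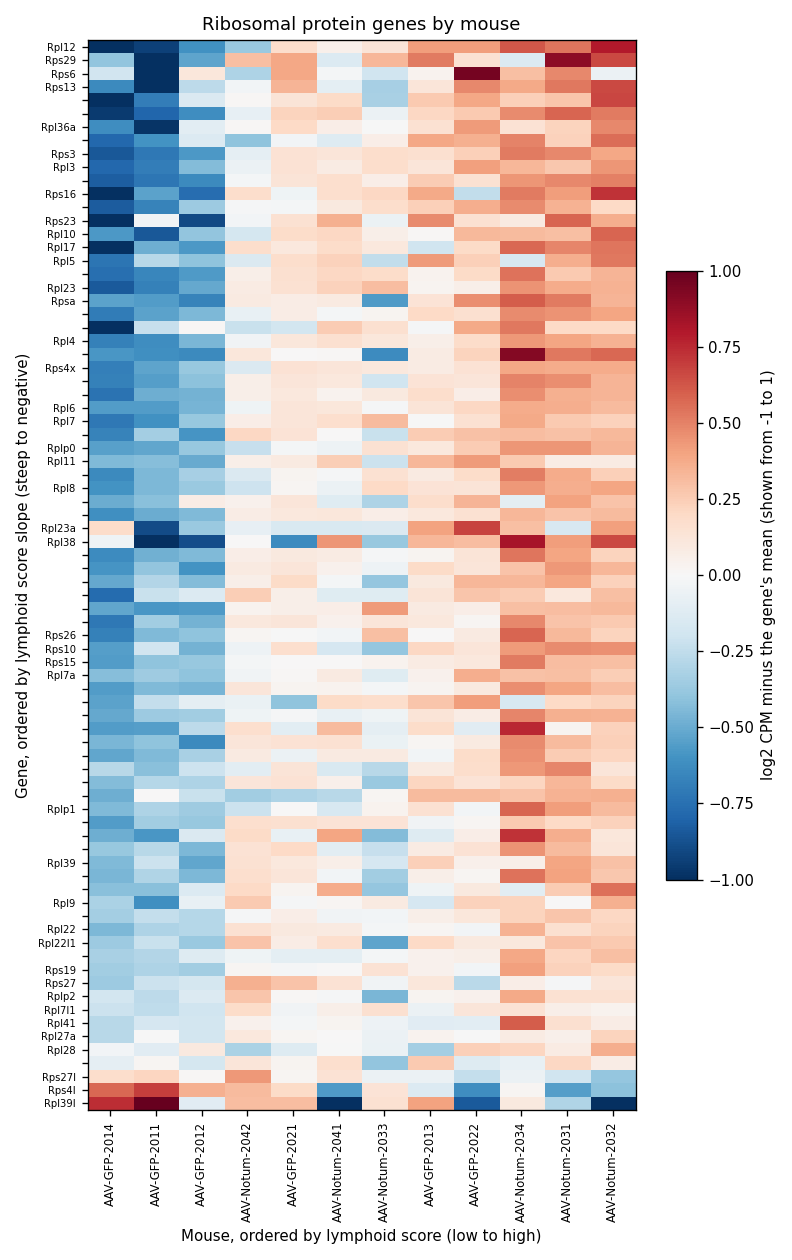
Log2 CPM minus the gene's mean (colour, shown from -1 to 1) for the 80 tested members (rows, some of them named, by lymphoid slope from 0.23 for Rpl12 to -0.17 for Rpl39l) in 12 mice (columns, by lymphoid score). Most rows are low in AAV-GFP mice S_2014, S_2011 and S_2012, and the bottom rows Rps27l, Rps4l and Rpl39l run the other way.

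With the lymphoid score in the group test, 6 members were higher in AAV-Notum mice at an unadjusted p under 0.05 by edgeR, against 4.32% of all genes tested, and the median log2 fold change was 0.10. Rps19, Rpl23, Rps26, Rpl17 and Rpl7 were among them. Rpl23 had 0.26 ± 0.08 and Rps19 0.19 ± 0.09 in this fit. The estimate for Rpl12 went from 0.50 to -0.01, for Rpl5 from 0.17 to -0.13 and for Rpl11 from 0.13 to -0.12. Leaving out S_2011 and S_2014 instead gave 4 members higher, against 2.16% of the genes tested, and a median of 0.19. The 3 lowest scores are all in AAV-GFP mice, so group and score overlap in these data.

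RIN ran from 5.7 to 7.6 among AAV-GFP mice and from 6.9 to 7.4 among AAV-Notum mice. In the fit with the group, 6 members had a positive and 2 a negative RIN slope at an unadjusted p under 0.05 by edgeR, against 6.00% and 4.52% of all genes tested, and 0 passed the adjusted threshold. The positive ones were Rpl10, Rpl3, Rpl36a, Rpl9, Rps13 and Rps6, and the negative ones Rpl39l and Rps4l. The positive count was 0 without AAV-GFP S_2011, the mouse of lowest RIN, and 16 and 2 without AAV-GFP S_2013 and S_2022, against 0.943%, 17.2% and 0.942% of all genes. Rps6 had a slope of 1.14 ± 0.28 log2 CPM per RIN unit, which was 0.71 without S_2011, and Rpl39l had -1.11 ± 0.28. The median slope over members was 0.20, -0.14 once the lymphoid score was added, and -0.05 without S_2011 and S_2014. With 1 mouse left out it was 0.12 without S_2011 and 0.09 without S_2022. Between the member mean and RIN, Pearson's r was 0.496 and Spearman's rho 0.313 over 12 mice. Without S_2011 and S_2022, the mice farthest from the median RIN, r was 0.155, so the relation rested on those mice, and within the 6 AAV-Notum mice it was -0.335. With RIN as a covariate, 20 members were higher in AAV-Notum mice at an unadjusted p under 0.05, against 2.98% of all genes tested.

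The members moved largely together across mice. The correlation of each tested member with the mean of the other members had a median of 0.901, was over 0.8 in 56 members and below 0 in 3, over 12 mice in which all members share the library and its scaling factor. After group means were removed the median was 0.885. Rpl6 (0.991) was closest to the rest. Rps4l (-0.778), Rpl39l (-0.621) and Rps27l (-0.573) ran against it, and Rpl28 (0.305) was the weakest above 0. An adjusted positive lymphoid slope was found in 20 of 26 tested canonical members with under 25% of windows of their own, 14 of 23 with 25 to under 50%, 16 of 18 with 50 to under 75% and 8 of 8 with 75% or more, against 25.6% of all genes.

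Other genes of the ribosome and of translation were counted in the same edgeR fits, in which the shares over all genes were 4.64% higher and 9.54% lower at the unadjusted level, and 25.6% with a positive and 19.7% with a negative adjusted lymphoid slope. Of the 5 ribosomal protein genes outside the name rule, 4 were tested, and Rps3a1 was higher in AAV-Notum mice at the unadjusted level (log2 fold change 0.37 ± 0.16, edgeR adjusted p = 0.325). Of 18 translation genes known for pyrimidine-tract mRNAs, 7 were higher and 1 lower at an unadjusted p under 0.05, with a median of 0.25. The higher ones were Naca, Btf3, Eif3h, Eef1b2, Npm1, Tpt1 and Eef1g, from 0.22 for Btf3 to 0.58 for Tpt1, and the lower one was Nap1l1, a histone chaperone, at -0.31 ± 0.11. Of these genes 9 had an adjusted positive lymphoid slope. Of 21 ribosome biogenesis genes, 5 were higher (Nhp2, Pes1, Ncl, Dkc1 and Fbl) and 1 lower (Rrs1), with a median of 0.18, and 16 had an adjusted positive lymphoid slope. Of 14 mTORC1 pathway genes, 0 were higher and 1, Rptor, was lower (-0.15 ± 0.06), and 0 had a positive and 5 a negative adjusted lymphoid slope. Of 74 mitochondrial ribosomal protein genes, which form another family, 1 had a positive and 45 a negative adjusted lymphoid slope. Between the groups 4 of them were higher and 1 lower at the unadjusted level, and their median was 0.04. Of 36 complex I genes, 30 had a negative adjusted lymphoid slope, and 2 were higher and 0 lower between the groups, with a median of 0.09. With the lymphoid score as a covariate, 27 mitochondrial ribosomal genes (median 0.20) and 23 complex I genes (median 0.32) were higher at the unadjusted level, against 4.32% of all genes. The same fit gave 3 translation genes (median 0.09), 2 biogenesis genes (median 0.01) and 0 ribosomal protein genes outside the name rule (median -0.01). Without S_2011 and S_2014 the counts for mitochondrial ribosomal and complex I genes were 8 and 1, against 2.16% of all genes. With RIN as a covariate they were 8 and 2, against 2.98%.

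Markers of the cell types that iWAT can hold were set beside the member mean over 12 mice. These include S_2011 and S_2014, which stand apart, and the relations were not taken without them. The mean log2 CPM of 7 adipocyte markers moved against the member mean (r = -0.826). Their summed CPM was 23000 to 38658 among AAV-GFP and 19741 to 46259 among AAV-Notum mice. For 4 endothelial markers r was -0.808, for 6 skeletal muscle markers -0.569, for 5 erythroid markers -0.543, for 6 hepatocyte markers -0.0867 and for 7 macrophage markers 0.272. The endothelial markers did not all move alike. Pecam1 had a positive slope on the lymphoid score (0.05, edgeR adjusted p = 0.0323). The slope was negative for Cdh5 (-0.11), Kdr (-0.10) and Tek (-0.09), and that of Tek did not pass the adjusted threshold. At an unadjusted p under 0.05 by edgeR, 9.54% of all genes tested were lower in AAV-Notum mice. Among the markers these were 1 of 7 for macrophages (Mrc1), 1 of 4 for endothelium (Tek) and 2 of 6 for hepatocytes (Alb and Serpina1a). No other marker passed this threshold. Every marker, those of adipocytes included, had reads in at least 1 mouse. The part of these cell types in the member differences was not tested.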

How the data were processed

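The authors prepared TruSeq libraries from iWAT RNA, sequenced 50 bp single-end reads on a HiSeq4000 and mapped them to mm10 with STAR 2.3.1. The deposited count table holds reads per gene, not normalized. The other deposited table holds log2 values, log2 of reads over a size factor plus 1, from which whole reads were recovered for 100% of values (tolerance 0.05). The counting program and its annotation are not given in the sources used here. Of the 80 tested members, 70 had totals within 10% between both tables.

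Counts were tested with edgeR 4.0.16 in R 4.3.3, with filterByExpr (minimum count 10, minimum total 15), TMM and a two-sided quasi-likelihood test, and Benjamini-Hochberg adjustment over 15585 genes at 0.05. CPM used TMM-scaled library sizes, and a prior count of 2 was added for log2 CPM. SE was taken as the log2 fold change over the root of the F statistic. Slopes on the lymphoid score, Cd79a and RIN carried a group term. Windows were read from GENCODE vM21 transcripts (GRCm38) and start sites from RefSeq. Relations across mice and genes are descriptions without a test.

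The members and gene lists were chosen with earlier results of these data known, and no list was tested as a set. Alternatives were DESeq2 1.42.0, limma-voom (limma 3.58.1), other scalings and filters, covariates, recovered reads, pseudogene counts added and mice left out. Chosen after seeing the data were the principal transcript length, recovered reads for slopes, the omission of S_2021 and S_2022, the omission of S_2011 and S_2014 for the share of counts and the RIN slope, and the scalings and single mice left out for Cd79a. The group fit was tested on simulated data in which 200 genes changed by 1 log2 unit. Of these, 55.5% passed the adjusted threshold, and 2.63% of the genes called were unchanged ones. Smaller changes, such as the member median of 0.35, were not simulated.

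Named members were Rplp0, Rplp1, Rplp2, Rpsa, Rps6, Rpl5, Rpl11, the paralogs and their parents, the 5 of smallest p in each direction, the 3 extremes of level per exon length, of spread among AAV-GFP mice and of lymphoid slope, and those not passing the filter. Rpl8, Rps3, Rps10, Rpl7a, Rpl6, Rpl28, Rpl36a, Rpl38, Rpl9 and Rps13 were named after their values were seen. Values of some genes are not reported here. Each library is 1 mouse, and p-values measure the spread between these mice.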

Additional observations from a re-analysis of the deposited data

Results flagged for a closer look

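In 74 groups of 6 values, a mouse far from the others of its group was found in 2, where chance gives about 1 in 20. Rpl22l1 was lowest in AAV-Notum S_2033 at 4.17 log2 CPM, with the other AAV-Notum mice between 4.80 and 4.98. Rpl41 was highest in AAV-Notum S_2034 at 7.05 log2 CPM, with the others between 6.39 and 6.60.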

How the results depend on the processing

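No member passed the adjusted group test under any alternative run. The count of members higher at an unadjusted p under 0.05, 32 as reported against 4.64% of all genes, was 19 with total counts in place of TMM (3.98% of all genes), 20 with RIN as a covariate (2.98%), 6 with the lymphoid score (4.32%), 6 with both (4.00%), 4 without S_2011 and S_2014 (2.16%), and 50 without S_2021 and S_2022 (12.0%), a setting that also gave 2 members lower. Leaving out each mouse in turn gave 18 to 45 higher, against 2.88% to 10.3% of all genes, and 0 to 2 lower. It gave 0.253 to 0.389 for the difference of the member mean, 0.187 to 0.280 percentage points for the share of counts, 45 to 61 members with a lymphoid slope (against 20.2% to 26.2% of all genes), 21 to 51 with a Cd79a slope (14.5% to 23.7%) and 0 to 16 with a positive RIN slope (0.942% to 17.2%). The Cd79a count was 24 with RIN added, against 12.7% of all genes. The RIN count was 1 with the lymphoid score added, 11 without a group term and 0 without S_2011 and S_2014, against 1.19%, 11.1% and 0.438% of all genes. With the score added the RIN slope was above 0 in 13 members, against 74 as reported, and that of Rpl12 went from 0.53 to -0.22. Total-count scaling moved the median log2 fold change of all genes from 0.01 to 0.06.

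Of named members, the log2 fold change changed sign as follows. Rpl23a was at 0.035 with total counts, 0.0040 with genes of at least 1 count, 0.15 without S_2021 and S_2022, 0.086 with limma-voom and 0.0037 with DESeq2. Rps27l was at 0.012 with total counts, 0.048 with RIN, 0.13 with the lymphoid score, 0.13 with both and 0.064 without S_2011 and S_2014. With the lymphoid score, with both covariates and without S_2011 and S_2014, Rpl11 was at -0.12, -0.12 and -0.038, Rpl5 at -0.13, -0.13 and -0.014 and Rpl36a at -0.11, -0.10 and -0.018. With the score and with both, Rpl12 was at -0.0071 and -0.010, Rps13 at -0.093 and -0.082, and Rps4l at 0.0105 and 0.0087. Rps6 was at 0.037 with pseudogene counts added, 0.36 without S_2021 and S_2022 and 0.10 with limma-voom. With single mice left out, Rpl23a ran from -0.15 to 0.17, Rps27l from -0.13 to 0.042 and Rps6 from -0.27 to 0.18. The cause was not tested. The log2 fold changes of the other tested members named here kept their sign in every alternative run. For lymphoid slopes, Rps27 was at -0.0066 without S_2011 and S_2014. In that setting the adjusted p of Rps4l was 0.0503, of Rps6 0.160 and of Rps29 0.110, and with RIN added that of Rps4l was 0.0984, of Rps6 0.188, of Rps29 0.116 and of Rpsa 0.0640 (edgeR). Low counts limit Rps6, Rps16, Rps23, Rps29 and Rpl23a. No paired analysis was possible because the groups share no replicate numbers.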
